A study of Mus musculus with 20 samples.

Results

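The epithelial junction genes described here are 35 genes of tight junctions, adherens junctions and desmosomes, measured by RNA-seq in primary mouse renal tubular epithelial cells. They were chosen by name, as 11 claudins, 4 other tight junction membrane proteins, 3 tight junction plaque proteins, 4 cadherins, 3 catenins, 2 desmosomal cadherins, 4 desmosome plaque proteins, the adhesion molecule Epcam and 3 polarity proteins. The choice was made with earlier results of these data known. All 35 were found among the 55891 gene IDs of the count table. The cells came from kidneys of the strain B6.129-Ptprz1tm1Nmo, in which the receptor tyrosine phosphatase gene Ptprz1 is altered. There were 4 groups of 5 libraries: knockout (KO) cells with LPS (100 ng/mL) and IFNγ (10 ng/mL) for 24 h, untreated KO control cells, heterozygous (het) cells with the same LPS+IFNγ treatment, and untreated het control cells. LPS is a bacterial cell wall component and IFNγ a cytokine, and both drive inflammatory gene expression. The het cells are the Ptprz-expressing comparison of the study and carry the altered allele too, so no wild-type cells were among the groups. All cells grew in DMEM/Ham's F12 with serum, EGF, prostaglandin E2, triiodothyronine, hydrocortisone, epinephrine and an insulin-transferrin-selenium supplement, and no age or sex of the animals was used. The labels give each library an animal, and the 10 libraries of each treatment came from 10 animals.

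Tight junctions seal the space between neighbouring epithelial cells. Claudins form their strands and set which ions pass, occludin and the MARVEL proteins sit in the same strands, and the plaque proteins Tjp1 and Cgn tie them to actin. Adherens junctions hold cells together through cadherins, whose tails bind the catenins, and desmosomes anchor intermediate filaments through desmosomal cadherins, plakoglobin (Jup), plakophilins and desmoplakin. In the kidney the set of claudins changes along the nephron, with Cldn2 typical of the proximal tubule and Cldn16 and Cldn19 of the thick ascending limb. Proximal tubule cells carry more N-cadherin (Cdh2) and K-cadherin (Cdh6) than E-cadherin (Cdh1), which is typical of more distal segments.

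Total counts per library were 12899528 to 20411411. Levels are given as CPM, the deposited estimated counts scaled to the library total after TMM normalization. In 4 libraries the response to the stimulus went against the label. Nos2, the inducible nitric oxide synthase, had 0 CPM in KO LPS+IFNγ replicate 4 and in het LPS+IFNγ replicate 5, against 1255 to 3564 CPM in the other stimulated libraries. The control libraries of the same animals had 202 CPM in KO control replicate 4 (animal 8) and 82.8 CPM in het control replicate 5 (animal 4), against at most 0.219 CPM in the other controls. The labels were kept, and results are given with these 4 libraries and without them. Animals 5 and 7 are listed under both genotypes. Ptprz1 itself had at most 7 counts in any library. The KO libraries of animal 8 had 7 counts (LPS+IFNγ) and 6 counts (control), and the het libraries of animal 4 had 0. The 4 other KO libraries of each treatment had 1 count in all. The 4 other het libraries had 9 counts in all with LPS+IFNγ and 7 as controls. In animals 4 and 8 these few counts thus also ran against the genotype label, and the cause was not tested.

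The labelled cell type was compared with marker lists. Of 22 proximal tubule markers 6 had a median of at least 1 CPM. Their summed level was 152 to 256 CPM in KO LPS+IFNγ libraries, 193 to 301 CPM in KO controls, 144 to 425 CPM in het LPS+IFNγ libraries and 166 to 649 CPM in het controls. The transporters Slc34a1, Slc5a2, Slc22a6 and Slc22a8 had a median of 0 CPM, while the endocytic receptor Lrp2 was present in every library (18.0 to 232 CPM). Of 17 fibroblast and mesenchymal markers 12 had a median of at least 1 CPM, led by Fn1 (3249 to 24558 CPM). Acta2, Vim and Tagln followed, with medians of 3509, 2996 and 2946 CPM, and Col1a1 had 643 CPM. The markers Col6a3, Pdgfra, Dcn, Fap and Lum had medians of 0.988, 0.759, 0.258, 0.196 and 0 CPM. The summed level of all 17 was 14676 to 37757 CPM in KO LPS+IFNγ libraries, 19416 to 42614 CPM in KO controls, 5609 to 36638 CPM in het LPS+IFNγ libraries and 5784 to 41441 CPM in het controls. The summed leukocyte list was at most 75.4 CPM in KO libraries and reached 413 CPM in het libraries. Over all libraries the summed levels of the other lists were 4.26 to 103 CPM for the loop of Henle (3 of 10 markers with a median of at least 1 CPM), 18.9 to 79.3 CPM for distal tubule and collecting duct (3 of 16), 17.1 to 107 CPM for endothelium (4 of 11), 104 to 586 CPM for podocytes (5 of 8), and 1804 to 7269 CPM for urothelium and parietal epithelium (4 of 11, with Cldn1 itself on the list). Umod and Aqp2, the defining markers of thick ascending limb and collecting duct, had a median of 0 CPM. In such bulk samples fewer cells of a type and less RNA per cell cannot be told apart.

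Per kilobase of exon the catenins and the tubular cadherins led the junction genes. Ctnnb1, which encodes β-catenin, had the highest median level, at 176 CPM per kb over the 20 libraries, and Cdh6 followed at 174 CPM per kb. Ctnna1 (αE-catenin) had a median of 99.7 CPM per kb, Ctnnd1 (p120-catenin) 89.9 CPM per kb, Cdh2 55.5 CPM per kb and Cldn1 47.2 CPM per kb. Over the libraries Ctnnb1 ranged from 115 to 189 CPM per kb and Cdh6 from 43.3 to 357 CPM per kb, so these neighbours overlapped. Ctnna1 (68.9 to 115 CPM per kb) overlapped Ctnnd1 (52.9 to 158 CPM per kb), and Cdh2 (33.2 to 79.0 CPM per kb) overlapped Cldn1 (26.4 to 89.7 CPM per kb). At the other end, Cldn10 had a median of 0.0212 CPM per kb, Cldn8 0.0122 CPM per kb and Cldn16 0 CPM per kb, with no count in 7, 10 and 12 of the 20 libraries. A count of 0 covers counting error only and allows up to 3 counts of the library total.

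Some members were present at like levels in every library, and some were nearly absent in part of the libraries. Others, such as Cdh16 (22.9 to 789 CPM) and Cdh6 (391 to 3218 CPM), varied widely but were present in every library. Tjp1 ranged from 149 to 220 CPM, Pard3 from 75.3 to 113 CPM and Pkp2 from 57.1 to 118 CPM, ranges of 0.57, 0.58 and 1.03 on the log2(CPM + 1) scale. Cldn4 ranged over 7.35 log2 units, Cdh1 over 7.21, Cldn2 over 6.49, Epcam over 6.07 and Cldn7 over 5.17, the widest ranges of the 35 genes on that scale. For Cldn4, Cdh1, Epcam and Cldn7 the low values were in the libraries of animals 2, 6 and 10, of both genotypes and both treatments, while the lowest 6 values of Cldn2 included libraries of other animals.

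Ctnna1 ranged from 443 to 737 CPM, Cldn12 from 70.8 to 193 CPM and Patj, a scaffold of the Crumbs complex, from 19.2 to 107 CPM. Cldn19 ranged from 0.0596 to 4.29 CPM. Cldn8, Cldn10 and Cldn16 reached at most 2.05, 5.93 and 2.04 CPM, each in a library of animal 1 or 9.

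**Figure D1:**
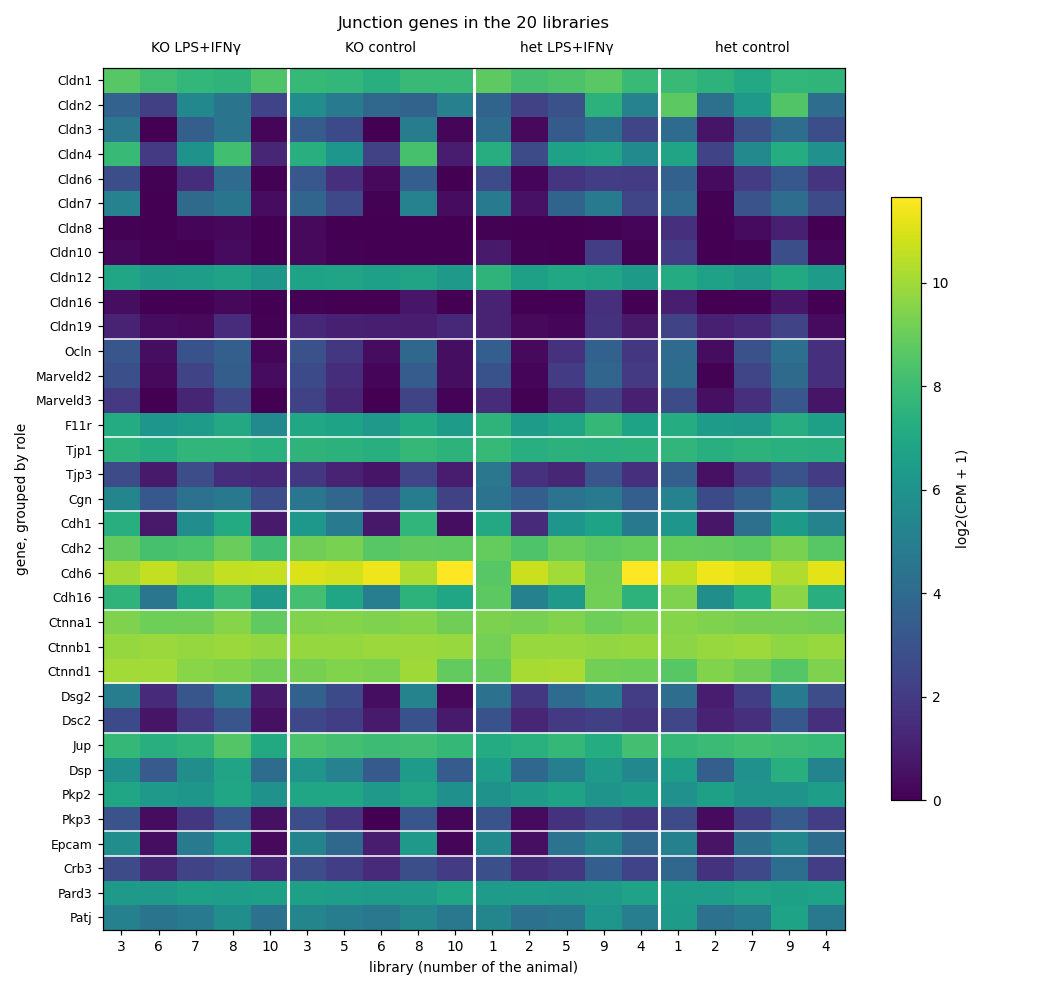
Level of each junction gene (rows, grouped by role) in the 20 libraries (columns, numbered by animal) as log2(CPM + 1), in the order KO LPS+IFNγ, KO control, het LPS+IFNγ and het control. Columns of animals 2, 6 and 10 are dark for Cldn3, Cldn4, Cldn7, Cdh1 and Epcam, while rows such as Ctnnb1, Tjp1 and Pard3 have nearly the same colour throughout.

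Cdh1, the E-cadherin of epithelial adherens junctions, had 164, 0.722, 51.7, 137 and 0.775 CPM in KO LPS+IFNγ replicates 1 to 5. It had 73.0, 27.1, 0.701, 201 and 0.365 CPM in KO controls 1 to 5. In het LPS+IFNγ replicates 1 to 5 it had 130, 1.72, 68.7, 109 and 24.9 CPM, against 68.4, 0.638, 18.8, 81.2 and 35.5 CPM in het controls 1 to 5. Values near or below 1 CPM were thus in replicates 2 and 5 of the stimulated KO cells, 3 and 5 of the KO controls and 2 of each het group, which are the libraries of animals 6, 10 and 2. All 4 groups overlapped.

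Epcam, an adhesion molecule of simple epithelia that binds and stabilises claudins, was lowest in the same 6 libraries as Cdh1. It had 52.1, 0.361, 28.0, 74.1 and 0.238 CPM in KO LPS+IFNγ replicates 1 to 5 and 36.7, 14.3, 0.935, 75.9 and 0.146 CPM in KO controls 1 to 5. In het LPS+IFNγ replicates 1 to 5 it had 47.2, 0.388, 21.0, 40.1 and 14.0 CPM, against 34.3, 0.51, 19.9, 42.4 and 16.4 CPM in het controls. The 6 low libraries had at most 0.935 CPM, and the next lowest library had 14.0 CPM.

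Cldn4, a claudin of distal segments, had 234, 2.89, 59.8, 275 and 1.37 CPM in KO LPS+IFNγ replicates 1 to 5 and 162, 69.0, 3.97, 306 and 0.875 CPM in KO controls 1 to 5. In het LPS+IFNγ replicates 1 to 5 it had 151, 5.43, 102, 119 and 44.7 CPM, against 112, 4.21, 43.4, 149 and 57.7 CPM in het controls. The 6 libraries of animals 2, 6 and 10 stayed at or below 5.43 CPM and the other 14 at or above 43.4 CPM. Ocln, which encodes occludin, had 0.119 to 0.365 CPM in those 6 libraries and 1.95 to 18.0 CPM in the other 14.

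**Figure D2:**
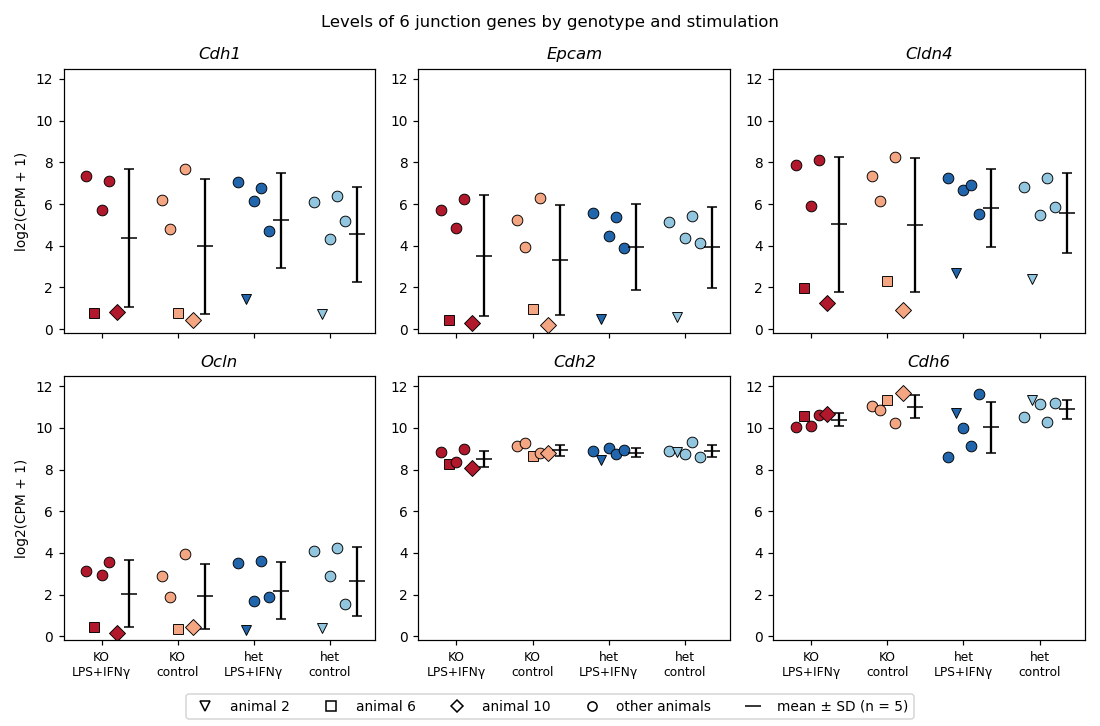
Levels of 6 junction genes as log2(CPM + 1) in the groups KO LPS+IFNγ, KO control, het LPS+IFNγ and het control, 1 point per library with marker shapes for animals 2, 6 and 10, and black bars for the mean ± SD of the 5 libraries. Cdh1, Epcam, Cldn4 and Ocln split within every group, with Cldn4 at 5.43 CPM or less in the 6 low libraries, while Cdh2 (268 to 637 CPM) and Cdh6 (391 to 3218 CPM) were present in every library.

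Of the 33 junction genes that passed the filter on low counts, 14 had their 6 lowest values of 20 in the 6 libraries of animals 2, 6 and 10. This held for 201 of 14568 genes tested (1.38%). The 14 were Cldn3, Cldn4, Cldn6, Cldn7, Ocln, Marveld2, Marveld3, Cgn, Cdh1, Dsp, Dsg2, Dsc2, Pkp3 and Epcam. These animals were singled out from the values of these genes, so the count is a description and no test belongs to it. Cldn3 had 0 to 0.574 CPM in those 6 libraries and 4.48 to 29.0 CPM in the other 14, Cldn7 had 0 to 0.499 and 4.48 to 35.1 CPM, and Cldn6 had 0 to 0.255 and 1.84 to 16.1 CPM. Marveld2 (tricellulin, found where 3 cells meet) had 0.0638 to 0.365 CPM in the 6 libraries and 1.84 to 16.4 CPM in the other 14. Of the desmosomal genes, Dsp, which encodes desmoplakin, had 8.7 to 16.3 and 31.6 to 157 CPM, and Dsg2 (desmoglein 2) had 0.219 to 2.66 and 3.28 to 35.8 CPM. Dsc2 (desmocollin 2) had 0.417 to 1.39 and 2.08 to 8.34 CPM, and the plakophilin Pkp3 had 0 to 0.417 and 2.28 to 9.31 CPM. The plaque protein gene Cgn (cingulin) came closest to overlap, with 3.94 to 10.3 CPM in the 6 libraries and 10.3 to 39.0 CPM in the other 14, and Marveld3 had 0 to 0.383 and 0.556 to 8.03 CPM.

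The same 6 libraries did not lack every junction gene. Cdh6 had 1541 to 3218 CPM in them and 391 to 3178 CPM in the other 14, Cdh2 had 268 to 465 and 330 to 637 CPM, and Ctnnb1 had 877 to 962 and 595 to 982 CPM. Cldn1 had 159 to 350 and 128 to 434 CPM. Levels of the kidney epithelial regulator Pax8 were 185 to 388 CPM in the 6 libraries and 134 to 326 CPM in the other 14. The summed fibroblast list was 30567 and 40533 CPM in the stimulated and control library of animal 2, 26819 and 38950 CPM in those of animal 6, and 14676 and 19416 CPM in those of animal 10. These sums lay within the range of the other libraries, and their part in the low values was not tested.

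The 250 bases before the transcription start are shown for Epcam, Cldn4, Ocln, Cldn7 and Cgn, which were among the genes low together. They are given as in RefSeq for GRCm38.p6, a build other than the GRCm39 named for the counts. A promoter sequence was matched for 25 of the 35 members. Capitals mark the letters CAGGTG or CACCTG, the 2 strands of the E-box that repressors such as Zeb1 and Snai2 are known to bind, and AACNGGTT or AACCNGTT, the 2 strands of a motif of the Grhl factors. The motifs share no letters where they occur below. Sequences run 5′ to 3′ on the strand of the gene, and for Ocln and Cldn7 the start with an E-box was taken from 2 annotated starts. Only low genes and starts with a marked motif are shown, so their presence in these windows follows from the choice. Cldn3, Dsp and Marveld2, low in the same libraries, held neither motif and are not shown, and Cldn6, with 1 E-box, is not shown either. Cldn1 is shown as a gene that was present in every library. Other such genes differed from it, with 1 E-box in F11r and 3 before 1 start of Pard3.
Epcam, chr17:87635729-87635978, plus strand: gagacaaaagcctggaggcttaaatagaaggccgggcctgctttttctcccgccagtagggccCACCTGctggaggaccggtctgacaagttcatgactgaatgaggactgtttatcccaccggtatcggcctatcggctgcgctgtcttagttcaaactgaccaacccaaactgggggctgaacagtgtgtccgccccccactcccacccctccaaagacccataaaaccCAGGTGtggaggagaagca
Cldn4, chr5:134946935-134947184, minus strand: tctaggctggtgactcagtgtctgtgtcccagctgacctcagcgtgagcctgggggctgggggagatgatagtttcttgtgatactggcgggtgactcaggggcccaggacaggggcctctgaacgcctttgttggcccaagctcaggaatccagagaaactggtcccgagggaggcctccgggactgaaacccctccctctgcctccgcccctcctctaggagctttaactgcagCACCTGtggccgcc
Ocln, chr13:100552499-100552748, minus strand: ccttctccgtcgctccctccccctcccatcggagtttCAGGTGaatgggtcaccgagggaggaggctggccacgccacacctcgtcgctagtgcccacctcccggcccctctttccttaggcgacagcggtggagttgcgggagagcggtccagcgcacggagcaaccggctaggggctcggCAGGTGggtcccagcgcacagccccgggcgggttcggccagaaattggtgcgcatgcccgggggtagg
Cldn7, chr11:69965171-69965420, plus strand: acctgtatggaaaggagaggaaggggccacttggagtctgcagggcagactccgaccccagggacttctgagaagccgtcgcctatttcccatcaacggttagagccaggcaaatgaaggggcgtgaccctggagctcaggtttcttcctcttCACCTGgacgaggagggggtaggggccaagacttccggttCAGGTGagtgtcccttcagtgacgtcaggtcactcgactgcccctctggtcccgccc
Cgn, chr3:94786483-94786732, minus strand: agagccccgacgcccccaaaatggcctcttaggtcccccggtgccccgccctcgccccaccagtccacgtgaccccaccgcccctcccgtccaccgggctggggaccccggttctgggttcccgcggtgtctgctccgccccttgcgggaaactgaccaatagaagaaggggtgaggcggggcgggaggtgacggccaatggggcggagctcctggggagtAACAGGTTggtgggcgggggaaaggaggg
Cldn1, chr16:26371840-26372089, minus strand: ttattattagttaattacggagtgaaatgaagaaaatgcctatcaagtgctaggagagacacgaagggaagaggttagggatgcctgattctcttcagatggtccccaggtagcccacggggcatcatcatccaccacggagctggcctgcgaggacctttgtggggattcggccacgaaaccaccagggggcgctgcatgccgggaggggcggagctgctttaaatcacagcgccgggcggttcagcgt

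Epcam, Ocln and Cldn7 each held 2 E-boxes in the windows shown, Cldn4 held 1, and Cldn1 held 0. An E-box was present before at least 1 start in 5 of the 9 matched genes among the 14 that were lowest in animals 2, 6 and 10 (Cldn4, Cldn6, Cldn7, Ocln and Epcam), and in 5 of the 16 other matched members. Counted by window, 12 of the members' 39 held one, against 17.2% of all 32851 windows of the same length. The 12 windows belong to 10 genes and are not all separate, since those of Crb3 overlap and hold the same E-boxes. The Grhl motif was found in Cgn alone among the members, against 1.79% of all windows. A match gives letters only, and binding was not measured.

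A formal test asked whether libraries of 1 animal were more alike than libraries of different animals of the same genotype. It used the 16 libraries of the 8 animals that gave a stimulated and a control library of 1 genotype, with edgeR's quasi-likelihood F test of the animal terms and Benjamini-Hochberg adjustment over all genes. The animal and anything else its libraries shared, such as the cell preparation or culture, cannot be told apart in this design. The animal term passed an adjusted p of 0.05 for 23 of 34 members tested, against 2952 of 14668 genes (20.1%). The members were chosen with earlier results of these data known, so the contrast of these shares is a description. Many members also varied together by animal, so the 23 are not separate results. The median F was 14.3 over the members and 2.51 over all genes tested. Without the libraries of animals 4 and 8 the count was 28 of 34 members, against 27.3% of all genes.

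Cldn4 had the highest F among the members (F = 153, edgeR adjusted p = 6.19e-05), followed by Epcam (F = 130, adjusted p = 8.43e-05). Cdh1 had F = 68.0 (adjusted p = 0.000374) and Ocln F = 67.8 (adjusted p = 0.000315). By role, the term passed for 6 of 10 claudins tested, all 4 other tight junction membrane proteins, all 3 tight junction plaque proteins, 2 of 4 cadherins (Cdh1 and Cdh16), both desmosomal cadherins, 3 of 4 desmosome plaque proteins and 2 of 3 polarity proteins. It passed for 0 of 3 catenins in edgeR, where Ctnna1 had an unadjusted p of 0.0344, and for none of them in limma-voom. The members with the lowest F were Cldn1 (F = 1.74, adjusted p = 0.349), Cdh2 (F = 1.82, adjusted p = 0.333) and Cldn19 (F = 1.85, adjusted p = 0.326). Without animals 4 and 8 the animal term also passed for Cldn1, Cldn2, Cdh6, Ctnnd1 and Jup, so the count of catenins was then 1 of 3. The call for the plaque protein Tjp1 (F = 6.56, adjusted p = 0.0441) was the least stable, and it was kept with animal 4 left out (adjusted p = 0.0464) and lost with each of the other 7 left out (adjusted p 0.0575 to 0.144).

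**Figure D3:**
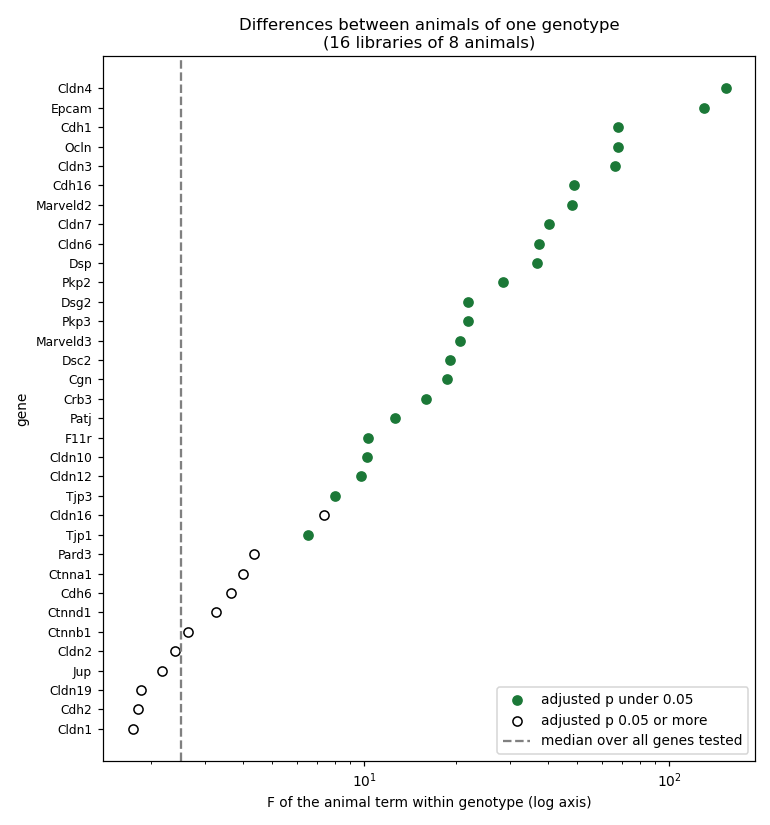
F value of the animal term for 34 junction genes (log axis), from the 16 libraries of 8 animals, with filled points for genes past an adjusted p of 0.05 and a dashed line at the median F of 2.51 over all genes tested. Cldn4 and Epcam lie at the right end (F = 153 and 130) and Cldn1, Cdh2, Cldn19, Jup and Cldn2 left of the dashed line.

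Another pair of animals held the highest values of several members. The 4 libraries of animals 1 and 9, all het, were the highest 4 of 20 for 4 of 33 members tested, against 670 of 14568 genes (4.6%). These were F11r, Tjp3, Cdh16 and Crb3, and the untested Cldn10 had the same order. Cdh16, the kidney-specific cadherin, had 425 to 789 CPM in those 4 libraries and 22.9 to 286 CPM in the other 16. F11r, which encodes the adhesion molecule JAM-A, had 146 to 217 and 46.5 to 145 CPM, and Crb3, an apical polarity protein, had 6.12 to 17.4 and 1.32 to 6.0 CPM. The regulator Hnf4a had 38.3 to 174 CPM in the 4 libraries and 0 to 2.91 CPM in the other 16. In the same 4 libraries the summed fibroblast list was 5609 to 8013 CPM, the lowest of the 20, and the summed leukocyte list was 137 to 413 CPM, the highest of the 20. A link between these list sums and the junction levels of the 2 animals was not tested, and the animals were singled out after their values were seen.

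The response to LPS and IFNγ was tested within each genotype. With all 20 libraries under their labels, edgeR's quasi-likelihood test called 0 of 33 members in KO cells and 0 of 33 in het cells at an adjusted p of 0.05, against 0% of 14568 genes in both genotypes. At an unadjusted p of 0.05 there was 1 member in each genotype, and 1307 genes in KO cells and 1981 in het cells. DESeq2 called 0 members among 115 genes in KO cells, and Cldn1 among 483 genes in het cells (log2 fold change 0.85, adjusted p = 0.00988). In edgeR Cldn1 differed by 0.41 ± 0.21 (SE) log2 units in KO cells (adjusted p = 0.593) and by 0.85 ± 0.21 in het cells (adjusted p = 0.105). Cdh2 differed by -0.40 ± 0.18 in KO cells (adjusted p = 0.531), and the lowest p after Cldn1 in het cells was that of the polarity protein Pard3 (-0.20 ± 0.11, adjusted p = 0.435).

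Without the 4 libraries against their labels, 0 of 34 members passed in KO cells, against 5.76% of 14630 genes (4.81% higher, 0.95% lower), and 1 of 34 in het cells, against 7.15% (5.67% higher, 1.48% lower). In KO cells 4 members had an unadjusted p under 0.05, DESeq2 called 1, and Jup came nearest in edgeR (adjusted p = 0.051). The member called in het cells was Cldn1, a claudin that seals the paracellular path in many epithelia, and its adjusted p was 0.013. Cldn1 had 305 ± 81.9 CPM in KO LPS+IFNγ cells and 205 ± 32.1 CPM in KO controls (SD, n = 4 each), and 369 ± 65.0 CPM in het LPS+IFNγ cells and 189 ± 43.7 CPM in het controls (SD, n = 4 each). The call in het cells was kept in each of the 16 fits that left out 1 more library. The difference between genotypes in this response was not called (edgeR, 20 libraries, -0.43 ± 0.30, adjusted p = 1).

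Since each animal gave both libraries, the response was also fitted within animals, without the libraries of animals 4 and 8 and those of animals 5 and 7. This left 3 KO animals (3, 6 and 10) and 3 het animals (1, 2 and 9). In that fit 7 of 34 members passed in KO cells, against 11.3% of 14776 genes, and 6 of 34 in het cells, against 16.2%. In KO cells 4 rose and 3 fell, against 6.84% and 4.47% of all genes, and in het cells 3 rose and 3 fell, against 9.26% and 6.9%. The members' share was thus 20.6% in KO cells, above the 11.3% of all genes, and 17.6% in het cells, close to the 16.2% of all genes, and nothing is read from either for junction genes as a group. The median log2 fold change of the members was -0.021 in KO cells and -0.14 in het cells, against -0.031 and -0.033 over all genes. The other fit within animals, with the 16 libraries of all 8 animals of 1 genotype, called 0 members in either genotype and 0 of 14668 genes, with 2 members at an unadjusted p under 0.05 in KO cells and 1 in het cells.

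The 6 genes called in both genotypes within animals were Cldn1, Cdh1 and Ctnnd1, which rose with LPS+IFNγ, and Jup, Cdh16 and Cdh6, which fell. Dsg2 also rose in KO cells. Cldn1 rose by 0.70 ± 0.10 log2 units in KO cells (edgeR adjusted p = 0.00488) and by 0.86 ± 0.10 in het cells (adjusted p = 0.00199), and was higher in 6 of 6 animals of that fit. In animal 8, left out of the fit, Cldn1 had 193 CPM in the library labelled stimulated and 238 CPM in the control. In animal 4, also left out, it had 231 and 194 CPM, so there Cldn1 was lower in the library with Nos2.

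Jup encodes plakoglobin, which is shared by desmosomes and adherens junctions. It had 217, 161, 188, 364 and 135 CPM in KO LPS+IFNγ replicates 1 to 5, against 321, 288, 250, 268 and 213 CPM in KO controls 1 to 5. In het LPS+IFNγ replicates 1 to 5 it had 145, 168, 216, 149 and 286 CPM, against 217, 246, 279, 255 and 220 CPM in het controls. The high stimulated values of 364 and 286 CPM belong to animals 8 and 4, and without those animals each het LPS+IFNγ library was below every het control. Within animals Jup fell by 0.64 ± 0.083 log2 units in KO cells (adjusted p = 0.00325) and by 0.63 ± 0.083 in het cells (adjusted p = 0.00313), and was lower in 6 of 6 animals.

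Cdh6, the K-cadherin of the proximal tubule, had 1066, 1541, 1076, 1544 and 1602 CPM in KO LPS+IFNγ replicates 1 to 5, against 2124, 1836, 2594, 1191 and 3218 CPM in KO controls 1 to 5. In het LPS+IFNγ replicates 1 to 5 it had 391, 1700, 1035, 557 and 3178 CPM, against 1467, 2611, 2227, 1240 and 2331 CPM in het controls. The libraries of animals 8 and 4 again ran the other way, with the stimulated library above the control. Within animals Cdh6 fell by 0.94 ± 0.22 log2 units in KO cells (adjusted p = 0.0344) and by 1.22 ± 0.22 in het cells (adjusted p = 0.0123). Cdh16 fell by 0.56 ± 0.096 in KO cells (adjusted p = 0.0101) and by 0.61 ± 0.095 in het cells (adjusted p = 0.00653).

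Cdh1 rose within animals by 0.97 ± 0.25 log2 units in KO cells (adjusted p = 0.047) and by 0.77 ± 0.19 in het cells (adjusted p = 0.0338). Its CPM was higher in 6 of 6 animals, but in animal 6 by only 0.02 on the log2(CPM + 1) scale, which is hardly a rise. In animals 6 and 10, where Cdh1 was near 1 CPM or below, the stimulated and control libraries had 0.722 and 0.701 CPM (animal 6) and 0.775 and 0.365 CPM (animal 10). Ctnnd1, whose product stabilises cadherins at the membrane, rose by 0.56 ± 0.13 in KO cells (adjusted p = 0.0342) and by 0.51 ± 0.13 in het cells (adjusted p = 0.0381). Dsg2 rose by 1.59 ± 0.34 in KO cells (adjusted p = 0.0239) and differed by 0.46 ± 0.26 in het cells (adjusted p = 0.268). Its stimulated and control libraries had 28.5 and 11.1 CPM in KO animal 3. Animals 6 and 10 were near the floor, with 1.69 and 0.351 CPM (animal 6) and 0.775 and 0.219 CPM (animal 10). The difference between the genotypes in the Dsg2 response was 1.13 ± 0.43 and was not called (edgeR adjusted p = 0.91). No member and no gene was called for that difference, while 2 members and 429 genes had an unadjusted p under 0.05.

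**Figure D4:**
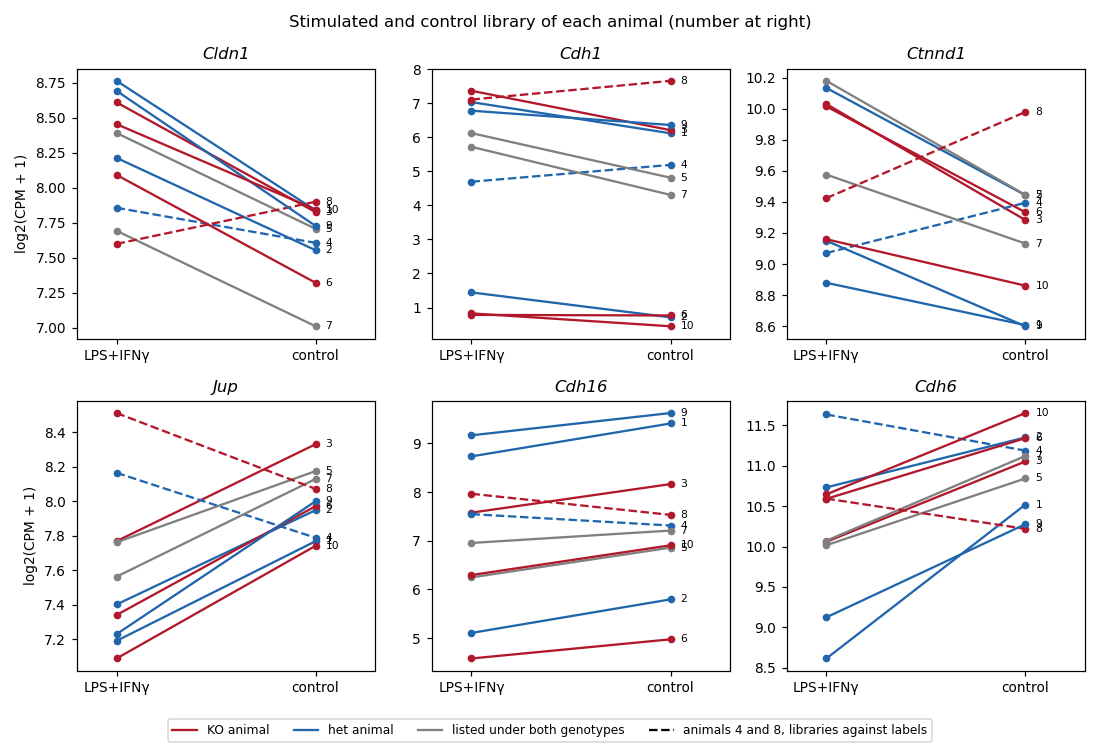
Level of 6 junction genes as log2(CPM + 1) in the LPS+IFNγ library (left) and the control library (right) of each of the 10 animals, with lines joining libraries of 1 animal, red for KO, blue for het, grey for the animals listed under both genotypes and dashed for animals 4 and 8. Jup, Cdh16 and Cdh6 were lower in the stimulated library of all 8 animals with solid lines and higher in animals 4 and 8.

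These calls rest on 3 animals a genotype. With 1 animal left out the count of members called was 1 to 12 in KO cells and 4 to 6 in het cells. In KO cells it was 2 without animal 3, 1 without animal 6, 2 without animal 10 and 12 without animal 1. Jup kept its call in both genotypes with each of the 6 animals left out, as did Cldn1 and Cdh16 in het cells. Cldn1 in KO cells lost its call without animal 6 (0.69, adjusted p = 0.0619). Cdh1 in KO cells lost it without animal 3 (0.45, adjusted p = 0.672), 6 or 10, and in het cells without animal 1 (0.54, adjusted p = 0.121), 2, 3 or 10. Ctnnd1 lost it in KO cells without animal 3, 6, 9 or 10 (adjusted p 0.0572 to 0.225) and in het cells without animal 2, 3, 6 or 9 (adjusted p 0.0658 to 0.149). Cdh6 lost it in KO cells without animal 3, 6, 9 or 10 (adjusted p 0.0668 to 0.183) and in het cells without animal 9 (adjusted p = 0.061). In KO cells Cdh16 (adjusted p 0.0666 to 0.102) and Dsg2 (adjusted p 0.0979 to 0.13) lost their calls without animal 3, 6 or 10. The directions of these values did not change with any of the 6 animals left out.

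**Figure D5:**
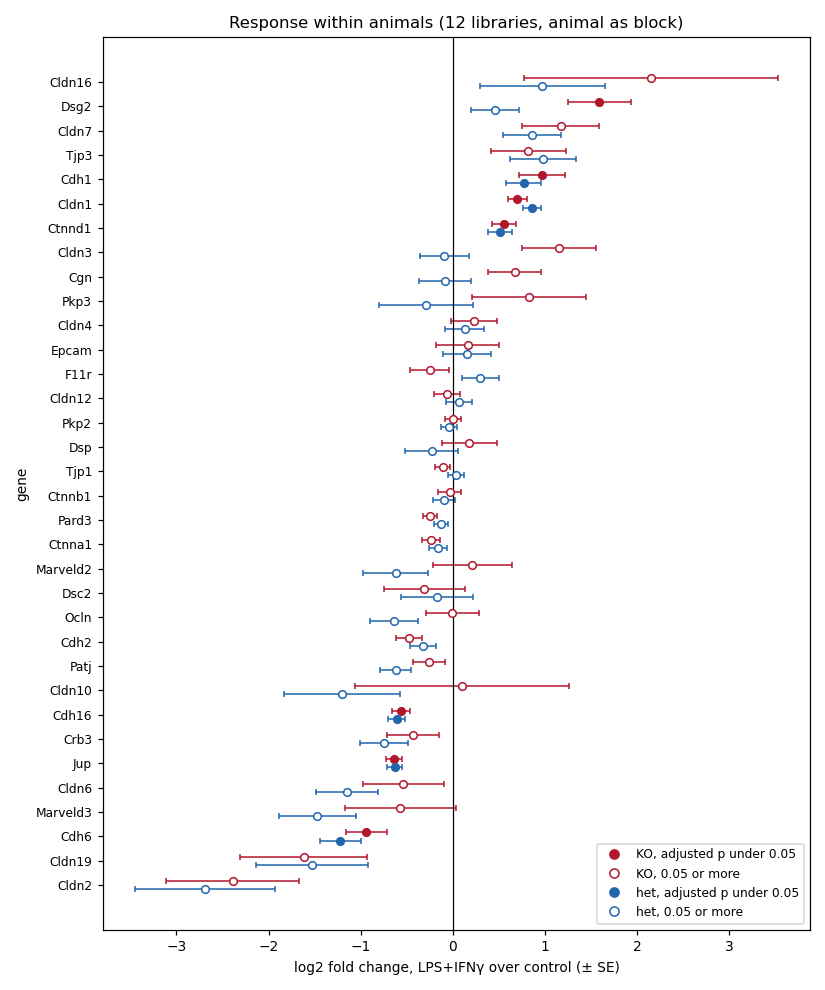
Log2 fold change of LPS+IFNγ over control within animals for 34 junction genes, with KO in red above het in blue, bars for the SE, and filled points for an adjusted p under 0.05 (3 animals in each genotype). Filled points in both genotypes are Cldn1, Cdh1 and Ctnnd1 on the right and Jup, Cdh16 and Cdh6 on the left, and Cldn2 has the most negative values with wide bars.

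Cldn2, the cation-permeable claudin of the proximal tubule, had the most negative fold changes of the members within animals, and they were not called. It had 11.5, 3.67, 41.8, 21.1 and 4.05 CPM in KO LPS+IFNγ replicates 1 to 5, against 52.0, 26.6, 14.2, 11.9 and 32.5 CPM in KO controls 1 to 5. In het LPS+IFNγ replicates 1 to 5 it had 12.4, 3.99, 6.38, 178 and 34.5 CPM, against 418, 18.8, 76.2, 354 and 17.2 CPM in het controls. The stimulated library was lower in 6 of 6 animals of that fit and higher in animals 4 and 8. It was also lower in animals 5 and 7, whose 2 libraries carry different genotype labels. The log2 fold change within animals was -2.39 ± 0.72 in KO cells (adjusted p = 0.0823) and -2.69 ± 0.76 in het cells (adjusted p = 0.0521). Animal 1 had the widest gap, with 12.4 CPM in its stimulated library and 418 CPM in its control.

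Genotype was then compared within each treatment. With 20 libraries edgeR called 0 of 33 members for KO against het under LPS+IFNγ and 0 of 33 in control cells, against 0% of 14568 genes in both. Leaving out animals 5 and 7, which are listed under both genotypes, also gave 0 members in each. Unadjusted p-values under 0.05 were found for 0 members and 366 genes under stimulation, and for 1 member and 499 genes in controls. DESeq2 called 0 members in both, among 0 genes under stimulation and 2 genes in controls, and limma-voom called 0 members. Cldn2 was the member with the lowest p in controls, at 27.5 ± 16.2 CPM in KO cells and 177 ± 194 CPM in het cells (SD, n = 5 each), a difference of -2.69 ± 1.08 log2 units (edgeR adjusted p = 0.999). The high het values of 418 and 354 CPM were those of animals 1 and 9, and the other het controls, with 17.2 to 76.2 CPM, overlapped the KO controls. Crb3 (-1.04 ± 0.60) and Patj (-0.76 ± 0.45), partners in the apical Crumbs complex, followed, and their highest values were also in animals 1 and 9.

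Under LPS+IFNγ the members with the lowest p for genotype were F11r (-0.58 ± 0.31), Cldn12 (-0.38 ± 0.21) and Cldn16 (-2.48 ± 1.60), each with an edgeR adjusted p of 1. F11r had 94.8 ± 41.0 CPM in KO cells and 142 ± 56.8 CPM in het cells (SD, n = 5 each). Cldn16 had no count in 12 of the 20 libraries, so its fitted change rests on a few counts. Without the 4 libraries against their labels, 0 of 34 members were called in either treatment, with 3 members under stimulation and 2 in controls at an unadjusted p under 0.05. The median log2 difference over the members was then -0.52 under stimulation and -0.98 in controls, against -0.0023 and -0.0031 over all genes tested. With 20 libraries these member medians were -0.0069 and -0.10. The 4 libraries left out include KO control replicate 4 (animal 8), which had the highest Cdh1, Epcam and Cldn4 of the 20. Animals 6 and 10, with low values of many members, stayed among the KO animals, and animals 1 and 9 among the het animals. Many members varied together by animal, so nothing is read from these medians for genotype. The difference in response between genotypes was called for 0 of 33 members (edgeR, 20 libraries, 0 of 14568 genes), with 0 members and 138 genes at an unadjusted p under 0.05.

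Other genes of junctions and of epithelial identity came from lists drawn up with earlier results of these data known. Of 61 other junction and polarity genes 47 were tested, and the animal term passed for 24 of them (51.1%, against 20.1% of all genes). Lsr, which recruits tricellulin to tricellular junctions, had F = 153 (adjusted p = 6.19e-05), with 1.46 to 5.04 CPM in the libraries of animals 2, 6 and 10 and 14.0 to 82.4 CPM in the other 14. Cdh11, a cadherin of mesenchymal cells that is also in the fibroblast list, had F = 60.9, with 57.5 to 121 CPM in animals 1 and 9 and 453 to 1191 CPM elsewhere. The polarity kinase gene Prkcz had F = 52.9. Within animals 8 of the 47 passed in KO cells (17%, against 11.3% of all genes) and 9 in het cells (19.1%, against 16.2%). Of these 1 was higher and 7 were lower in KO cells, against 6.84% and 4.47% of all genes, and 1 was higher and 8 were lower in het cells, against 9.26% and 6.9%. Ctnnal1, an α-catenin relative, fell by 1.16 in KO cells and by 0.98 in het cells, and Ildr2 fell by 1.09 and 1.14, Evpl (envoplakin) by 1.28 and 1.48 and Crb2 by 2.55 and 2.59, in KO and het cells in that order.

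Of the epithelial regulators 16 of 22 were tested and 9 differed between animals (56.2%, against 20.1% of all genes), led by Grhl2 (F = 59.1), a transcription factor that maintains junction gene expression in epithelia, Esrp1 (F = 33.3), a splicing factor of epithelia, and Tfap2b (F = 21.4). The 6 libraries of animals 2, 6 and 10 were the lowest 6 of 20 for 4 of these 16 regulators, for 7 of the 47 other junction genes and for 0 of the 9 mesenchymal regulators, against 1.38% of all genes. Of the 4 regulators, Grhl2 had 0 to 0.277 CPM in the 6 libraries of animals 2, 6 and 10 and 2.0 to 9.77 CPM in the other 14, and Esrp1 had 0 to 0.277 and 3.59 to 17.5 CPM. Within animals Elf3 rose by 1.33 in KO cells and 1.34 in het cells, and Klf4 by 0.91 in both, while Hnf4g rose by 2.21 in KO cells, with a genotype difference of 1.03 ± 0.52 that was not called (edgeR adjusted p = 0.91). Of the 11 mesenchymal regulators 9 were tested for the animal term and 5 passed it (55.6%), led by Prrx1 (F = 38.5), Foxc2 (F = 31.9) and Zeb1 (F = 24.9). Zeb1, which represses Cdh1 in many epithelia, had 90.6 to 113 CPM in the 6 libraries and 33.7 to 104 CPM in the other 14, and Snai2 had 11.1 to 23.1 and 1.92 to 22.2 CPM, so both overlapped. Within animals Foxc2 fell by 0.92 in KO cells and 0.96 in het cells. In het cells Zeb1 rose by 0.40, with a genotype difference of -0.33 ± 0.12, and Pax2 and Esrp2 fell by 0.55 and 0.71. Zeb2 differed by 0.45 in KO cells (adjusted p = 0.285) and rose by 1.09 in het cells. The difference between genotypes was not called for Zeb1 or Zeb2 (edgeR adjusted p = 0.91 each). Of the 10 mesenchymal regulators tested within animals, 1 passed in KO cells (10.0%, lower) and 3 in het cells (30.0%, 2 higher and 1 lower). Of the 16 epithelial regulators 3 passed in KO cells (18.8%, all higher) and 5 in het cells (31.2%, 3 higher and 2 lower). The shares of all genes called in the same fit were 11.3% in KO cells and 16.2% in het cells.

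The levels of the members were set against the mean log2(CPM + 1) of the fibroblast list in the 10 control libraries, which come from 10 animals. Separate clusters of libraries left 31 of 33 members for the test, and p-values came from permutations. Ctnnb1 was correlated with the list (r = 0.96, permutation p = 0.00021, adjusted over the members 0.00651), with a Spearman rho of 0.842 (permutation p = 0.00349, adjusted 0.108). Without the 2 libraries farthest from the median its r was 0.737. Cldn12 ran against the list (r = -0.849, permutation p = 0.00148, adjusted 0.0229), with a rho of -0.648 (permutation p = 0.0498, adjusted 0.515), and its r without those 2 libraries was -0.613. Both passed the adjusted threshold for r and neither did for rho. In the 10 stimulated libraries Cldn1 alone passed, with r = -0.822 (permutation p = 0.00159, adjusted 0.0493) and rho = -0.915 (permutation p = 0.00054, adjusted 0.0167), and r was -0.836 without the 2 farthest libraries. For the proximal tubule list the libraries fell into separate clusters, since the largest gap took 0.628 of the range, so no pooled correlation is given.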

How the data were processed

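RNA was measured in 20 libraries of cultured tubular epithelial cells, 5 in each of 4 groups taken from the labels. Per the labels' protocols, total RNA went into directional libraries. Salmon 1.10.2 (quantification), FastQC 0.11.9, DESeq2 1.45.3, R 4.4.1 and build GRCm39 are listed in the submitters' processing notes. The authors deposited estimated counts per gene for 55891 Ensembl IDs, which were already whole numbers. The step from transcripts to genes is not given in the sources used. Symbols for 51425 IDs (92.0%, with 98.8% of counts) came from a GENCODE annotation of GRCm38.

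Here counts were filtered with filterByExpr, scaled by TMM and fitted with edgeR 4.0.16 (quasi-likelihood, robust, R 4.3.3) over all genes, with Benjamini-Hochberg adjustment and a threshold of 0.05. The filter kept 33 of the 35 members with 20 libraries and left out Cldn8 and Cldn10, and it kept 34 in the smaller fits. Depth, with a median total of 17431039 counts, limits the precision of genes near 0. DESeq2 1.42.0, limma 3.58.1 voom, other scaling, filters, left-out libraries and blocks were alternatives. Pairing rests on the animal in the labels, and replicate numbers do not follow animals. Correlations used 100000 two-sided permutations (Python 3.11.15, scipy 1.17.1). Members described in full were those called, the 3 with the lowest p per comparison, the highest and lowest per role and the widest ranges. The members and gene lists were chosen with earlier results of these data known. Scripts were tested on simulated data.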

Additional observations from a re-analysis of the deposited data

Results flagged for a closer look

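In 5 of 132 groups of 5 libraries, 1 library stood apart from the other 4 of its group, with a gap to the nearest library above 0.71 of the group's range. Chance alone flags about 1 in 20 such groups. Cldn2 had 178 CPM in het LPS+IFNγ replicate 4 (animal 9), and the next library of that group had 34.5 CPM. Tjp3, a tight junction plaque protein gene, had 23.5 CPM in het LPS+IFNγ replicate 1 (animal 1), against 7.33 CPM in the next library. Ctnnb1 was lowest in that same library, at 595 CPM, and the nearest library had 875 CPM. Cldn16 had 0.625 CPM in KO control replicate 4 (animal 8, one of the libraries against its label), and the nearest KO control had 0.0582 CPM. Ctnna1 had 550 CPM in KO control replicate 5 (animal 10), the lowest of its group, and the next had 668 CPM.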

How the results depend on the processing

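With all 20 libraries 0 members were called for the stimulus in either genotype. In het cells the count was 1 with DESeq2, 1 without the 4 libraries against their labels and 0 to 1 with 1 library left out (1 without het LPS+IFNγ replicate 5). In KO cells it stayed at 0 with each library left out. With the animal as a block (the paired fit) the count was 0 in both genotypes over all libraries of 1 genotype. Without the 4 libraries as well, that block gave 7 in KO cells and 6 in het cells. A block on the replicate number gave 0 for KO against het. In the 16-library fit KO cells had 0 calls, 1 with DESeq2, 1 with DESeq2 size factors and 0 to 2 with 1 library left out, and het cells had 1 call, 2 with DESeq2 and 1 to 2 with 1 library left out. In the 12-library fit within animals limma-voom called 14 in het cells, and leaving out animals gave 1 to 12 in KO cells and 4 to 6 in het cells. With 20 libraries and 1 left out, the log2 fold change in KO cells ran from -0.35 to 1.49 for Cdh1, from -0.35 to 1.55 for Dsg2 and from -0.52 to 0.23 for Cdh16, so their direction depends on single libraries there. A correlation with the fibroblast list was called for 2 members in the controls (Ctnnb1 and Cldn12), for 3 without the 4 libraries (F11r as well) and for 1 other member in the stimulated libraries (Cldn1), so none was called in both treatments. The causes of these changes were not tested. Over all alternatives 807 fold changes kept their direction and side of the threshold, 16 became and 29 ceased to be called, and 10 changed sign. Of the animal terms 414 kept their side, 6 became and 16 ceased to be called. The alternatives on 16 and 12 libraries were chosen after seeing the data. Intervals between genotypes are wide, since animals of 1 genotype differed by several log2 units for many members.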
